A study of Homo sapiens with 21 samples.

Results

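The Hedgehog (HH) core genes were 9 genes, taken by gene symbol from 60651 human genes counted by RNA-seq in 21 xenograft tumors. They were the ligand SHH, the receptor PTCH1, the ligand-trapping protein HHIP, the transducers SMO, SUFU and KIF7, and the transcription factors GLI1, GLI2 and GLI3. Of these, 8 of 9 passed the filter on low counts, as 16990 genes did in all, and GLI3 did not. The tumors grew from A549-Luc2 cells, a luciferase-carrying form of the human lung adenocarcinoma line A549, injected under the skin of female athymic nu/nu mice aged 6 to 8 weeks. Mice of the control group were given the formulation alone, and the other 2 groups were given Oxy186 or Oxy210, both at 50 mg/kg by daily oral gavage. Both compounds are semisynthetic oxysterols, which are oxidised derivatives of cholesterol. The study randomised 10 mice to each group, and RNA from 7 tumors of each group was sequenced. All tumors came from 1 cell line, athymic mice lack T cells, and reads of the mouse genome were removed, so HH gene expression in the mouse stroma was not measured here.

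Total counts on human genes ran from 13787493 to 17865119 per tumor, and the ranges of the 3 groups overlapped. No pair of tumors within a group was alike within sampling noise (lowest chi-square per degree of freedom 11.8 over 63 pairs), so each tumor was taken as 1 replicate. The A549 epithelial markers summed to between 15650 and 26251 CPM in a tumor, with keratins KRT8 and KRT18 among them. CPM are counts scaled to the TMM-adjusted library size, except that all marker sums were scaled to the unadjusted total counts. The fibroblast markers COL1A2 and POSTN and the endothelial markers VWF and KDR had a median count of 0 over the 21 tumors, whereas other genes of these lists were counted, LUM from 566 to 3348, COL1A1 from 256 to 1031 and PECAM1 from 14 to 58 per tumor. The libraries differed in their trend with GC content. The GC slope is the change in log2 CPM over 10 percentage points of exon GC content, taken relative to each gene's mean over the 21 tumors. A negative slope thus means lower than the average of these tumors. The slope ran from -0.15 to 0.40 in control tumors, from -0.51 to 0.49 after Oxy186 and from -0.33 to 0.26 after Oxy210. The 4 lowest slopes of the Oxy186 group, -0.30, -0.18, -0.51 and -0.47, were those of r1, r2, r3 and r4, the tumors that the study kept for its own analysis after a principal component plot of the same libraries. The first principal component of log2 CPM over the 21 tumors ran opposite to the slope at its extremes. Oxy186-treated r3 and r4 scored 70.3 and 68.7 on it, Oxy186-treated r6 -60.3 and control r1 -50.6. Removing the GC trend may thus also remove other variation along this component, which was not tested.

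In the HH pathway, the secreted ligand SHH binds the membrane receptor PTCH1 and so ends its repression of SMO, a membrane protein of the G-protein-coupled receptor family that then gathers in the primary cilium. Downstream, SUFU holds GLI proteins back, KIF7 is a kinesin of the ciliary tip that organises them, GLI2 acts mainly as the activator and GLI3 mainly as the repressor. GLI1, PTCH1 and HHIP, a membrane protein that traps the ligand, are transcribed in response to GLI activity in many tissues and are used as readouts of the pathway.

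Promoter sequences of these genes were searched for the letters of the GLI consensus site, GACCACCCA, and for its reverse complement TGGGTGGTC. The RefSeq windows on GRCh38.p14 run from 250 bases before to 50 bases after an annotated start, and they covered 7 of the 9 genes with 12 promoters. GLI1, also a readout gene, and GLI3 had no window and were not searched. The site was found in 1 of the 5 PTCH1 promoters, in reverse orientation at position -172 from the start, and in none of the other 11. Over all 35116 promoters, 83 held it (0.236%). The window of PTCH1 (chr9:95509217-95509516, minus strand) and that of HHIP (chr4:144645906-144646205, plus strand), also used as a readout, are given because their transcripts were not shown to move with those of SMO and GLI2 across tumors. Both read 5′ to 3′ on the strand of the gene, and capitals mark the matched site.
PTCH1 promoter: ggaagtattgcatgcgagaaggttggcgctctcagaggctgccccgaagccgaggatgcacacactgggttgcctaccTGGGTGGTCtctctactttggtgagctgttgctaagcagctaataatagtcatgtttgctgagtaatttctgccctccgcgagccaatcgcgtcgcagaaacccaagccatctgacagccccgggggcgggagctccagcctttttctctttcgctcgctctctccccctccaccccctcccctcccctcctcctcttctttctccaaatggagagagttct
HHIP promoter: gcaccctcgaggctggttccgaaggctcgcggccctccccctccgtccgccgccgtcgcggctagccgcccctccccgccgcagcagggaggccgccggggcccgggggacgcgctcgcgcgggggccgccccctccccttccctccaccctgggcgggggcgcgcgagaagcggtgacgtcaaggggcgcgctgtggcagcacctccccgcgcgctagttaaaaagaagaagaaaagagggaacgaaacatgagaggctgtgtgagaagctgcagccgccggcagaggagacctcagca
A match describes these letters in this window, and GLI binding was not measured.

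Expression levels of the HH genes were ordered per length, as RPKM (CPM divided by exon length in kilobases) averaged over the 21 tumors. SMO was the highest, at 7.40 ± 2.03 RPKM (SD, n = 21), above 69.1% of 16953 genes. GLI2 followed at 2.88 ± 0.65 RPKM and SUFU at 2.73 ± 0.60 RPKM, and this pair was not separated by its spread, since GLI2 was the higher in 12 of 21 tumors. KIF7 stood at 1.996 ± 0.60 RPKM and was below SUFU in 20 of 21 tumors. GLI1 stood at 1.498 ± 0.56 RPKM, below KIF7 in 16 of 21 tumors. The ligand, its receptor and HHIP were lower. SHH had 0.78 ± 0.22 RPKM, PTCH1 0.60 ± 0.13 RPKM and HHIP 0.47 ± 0.19 RPKM, a level above 13.4% of genes. SHH was above PTCH1 in 16 of 21 tumors and PTCH1 above HHIP in 17 of 21. SMO was above GLI2, and HHIP above GLI3, in 21 of 21 tumors.

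Counts behind these levels were modest. SMO (chr7:129188633-129213545, GRCh38) had from 233 to 852 counts in a tumor, GLI2 (chr2:120735623-120992653) from 166 to 452, GLI1 (chr12:57459785-57472268) from 57 to 184 and SHH (chr7:155799980-155812463) from 29 to 97. The variation between tumors of a group exceeded counting error for all 8 genes. It was smallest in SUFU (coefficient of variation 21.6%, with 5.94% from counting) and largest in HHIP (41.0%, with 10.9% from counting). Whether reads were counted by strand is not stated in the sources used here, and 10.8% of the exon bases of KIF7 lie opposite TICRR and 8.3% of those of HHIP opposite antisense genes, so their counts are less certain.

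GLI3 (chr7:41960949-42264100) was close to absent from the human reads. It had 11 counts among 316955900 over the 21 tumors, against 7031 for GLI2. The counts were 0, 0, 4, 0, 0, 2 and 1 in control r1 to r7, and 0, 0, 0, 3, 1, 0 and 0 in Oxy210-treated r1 to r7. All 7 Oxy186-treated tumors had 0 counts. Pooled over each group, this is 0.0649 CPM in the control group (95% exact Poisson interval 0.0261 to 0.134, counting error only), 0.0383 CPM in the Oxy210 group (0.0104 to 0.0982) and 0 in the Oxy186 group (0 to 0.0352), here with the unadjusted total counts as denominators. By the limit of 3 counts, 0 counts in the Oxy186 group allow up to 0.0286 CPM. The intervals overlapped. In the edgeR fit without a filter on low counts, GLI3 had an unadjusted p of 0.0118 in Oxy186 against control (adjusted p = 0.611), 0.0348 in Oxy186 against Oxy210 (adjusted p = 0.663) and 0.539 in Oxy210 against control (adjusted p = 0.806), where 2591, 2416 and 4536 genes had an unadjusted p under 0.05. GLI3 was thus not called in any of these comparisons. With 16 of 21 tumors at 0, its correlations with the other genes cannot be read and are not described.

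**Figure D1:**
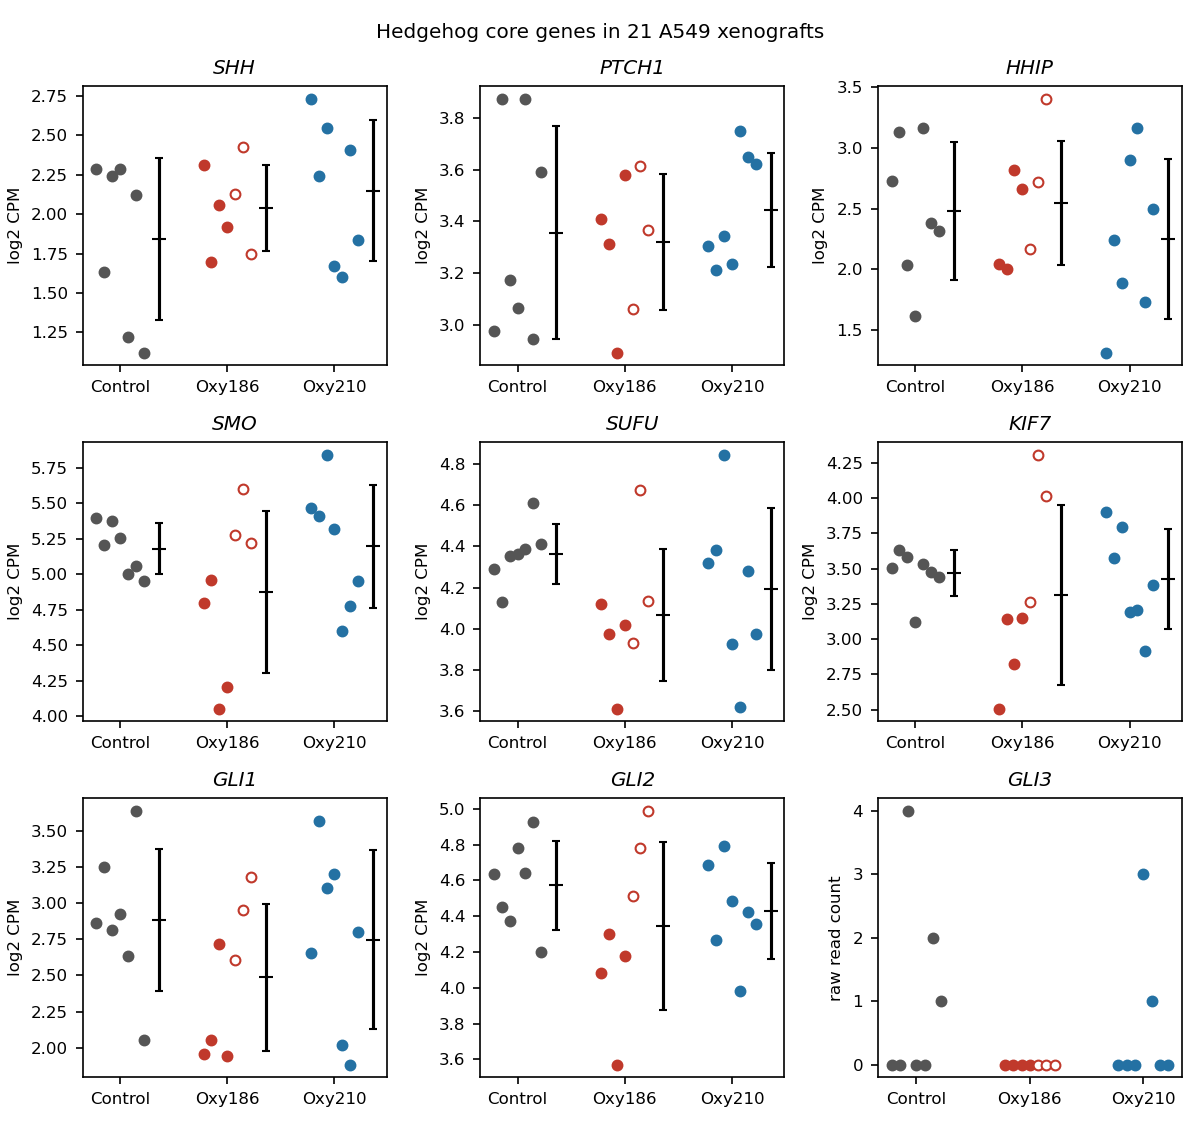
Level of each HH gene in each tumor (log2 CPM, for GLI3 the raw read count) in the control, Oxy186 and Oxy210 groups, with points in the order r1 to r7 and the mean ± SD beside them; open points are Oxy186-treated r5 to r7. The ranges of the groups overlap for all 9 genes, and in SMO, KIF7 and GLI2 the open points lie above all filled Oxy186 points. The share of all genes with such a separation was not counted.

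Oxy210-treated tumors were compared with the control group to ask whether this compound, given at the same dose as Oxy186, changed the transcripts of the pathway. None of the 8 tested HH genes passed the test. The log2 fold changes ran from -0.18 for HHIP to 0.32 for SHH, and the adjusted p-values from 0.515 to 0.999 (edgeR quasi-likelihood test, two-sided, Benjamini-Hochberg). Over all genes edgeR called 0 of 16396 (0%), as did limma voom, while 2270 (13.8%) had an unadjusted p under 0.05 and DESeq2 called 92, none of them an HH gene. No HH gene had an unadjusted p under 0.05. In a bulk tumor, fewer cells that express a gene and less RNA per cell cannot be told apart.

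SHH ranged from 2.04 to 4.74 CPM in control tumors (median 4.22) and from 2.90 to 6.51 CPM in Oxy210-treated tumors (median 4.60). The groups overlapped, and 4 of 7 Oxy210-treated tumors lay above the control median. Its log2 fold change was 0.32 ± 0.23 (SE), with a 95% interval from -0.17 to 0.81.

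PTCH1 and HHIP differed by less than the spread between tumors. PTCH1 (chr9:95442980-95517057) ranged from 7.57 to 14.5 CPM in the control group (median 8.89) and from 9.14 to 13.3 CPM in the Oxy210 group (median 10.0). All 7 Oxy210-treated tumors were above the control median, yet the highest values, 3.87 log2 CPM in r2 and r5, were those of control tumors, and the log2 fold change was 0.072 ± 0.18 (interval -0.31 to 0.45). HHIP (chr4:144646156-144745271) ranged from 2.93 to 8.85 CPM in the control group (median 5.09) and from 2.35 to 8.84 CPM after Oxy210 (median 4.60), with a log2 fold change of -0.18 ± 0.30 (interval -0.80 to 0.45).

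SMO ranged from 30.8 to 42.0 CPM in control tumors (median 36.8) and from 24.1 to 57.2 CPM in Oxy210-treated tumors (median 39.9). The treated tumors held both the lower and the higher extreme, and the log2 fold change was 0.079 ± 0.15 (interval -0.24 to 0.40). SUFU (chr10:102503972-102633535) ranged from 17.4 to 24.3 CPM in the control group and from 12.2 to 28.6 CPM in the Oxy210 group, with a log2 fold change of -0.12 ± 0.15. KIF7 (chr15:89608789-89663086) had medians of 11.2 CPM in control and 10.3 CPM in Oxy210-treated tumors, and its interval ran from -0.31 to 0.31 around a fitted log2 fold change near 0.

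The GLI genes, which are the output and effectors of the pathway, were also within the spread. GLI1 ranged from 4.02 to 12.3 CPM in the control group (median 7.14) and from 3.56 to 11.7 CPM in the Oxy210 group (median 6.82). Its log2 fold change was -0.087 ± 0.26, with an interval from -0.63 to 0.45. GLI2 ranged from 18.2 to 30.3 CPM in control tumors (median 24.8) and from 15.7 to 27.5 CPM in Oxy210-treated tumors (median 21.3). Its log2 fold change was -0.13 ± 0.13 (interval -0.40 to 0.15), so a fall of GLI2 by a factor of 2, which is -1 on the log2 scale, lay outside the interval, as it did for each of the 8 genes.

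When each library's GC trend was entered as an offset, the fitted values of SMO, KIF7, GLI1 and GLI2 were higher. The lowest value among the 8 genes was further below 0, at -0.36 against -0.18 without offsets. SMO had a log2 fold change of 0.26 ± 0.09 (unadjusted p = 0.00997, adjusted p = 0.244, edgeR) and SHH to 0.42 ± 0.20 (unadjusted p = 0.0442, adjusted p = 0.336, edgeR). These were 2 of 8 HH genes with an unadjusted p under 0.05, where 14.4% of all genes had one, and none passed the adjusted threshold. KIF7, GLI1 and GLI2 had log2 fold changes of 0.21, 0.052 and 0.062 under these offsets, against -0.00066, -0.087 and -0.13 without them.

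**Figure D2:**
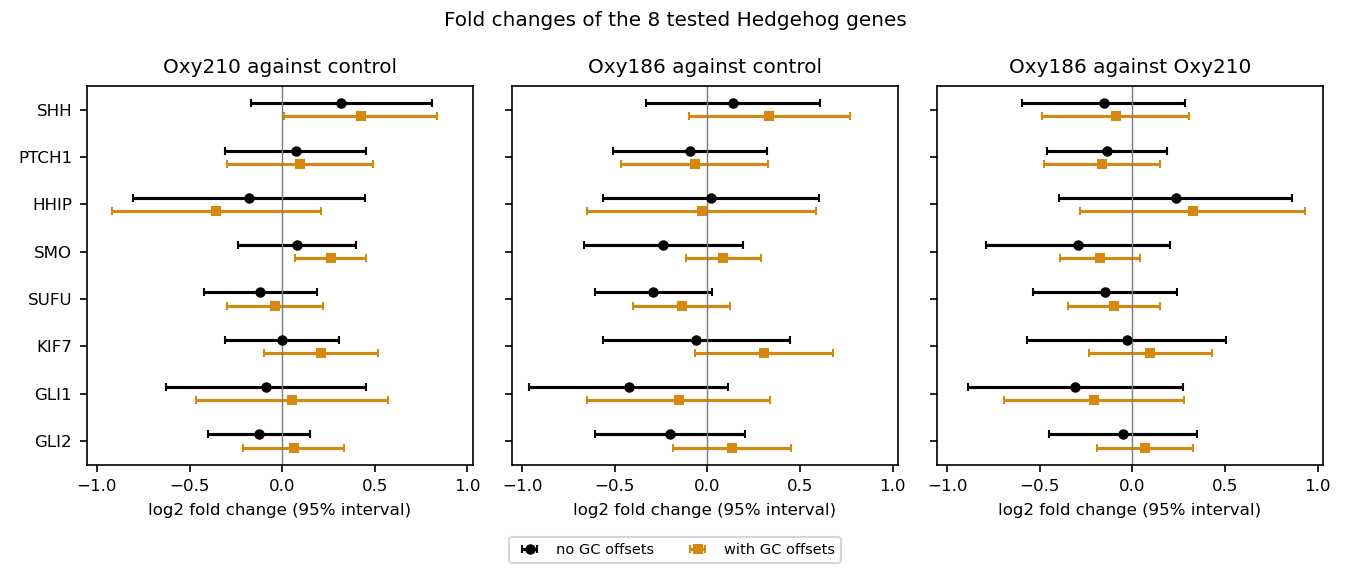
Log2 fold change with its 95% interval for the 8 tested HH genes in the 3 comparisons, from edgeR without (black circles) and with (orange squares) GC offsets. All black intervals cross 0, and with offsets those of SHH and SMO in Oxy210 against control lie above 0, from 0.012 to 0.84 and from 0.071 to 0.45, although neither gene passed the adjusted threshold.

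For Oxy186, the same 8 genes were tested with all 7 treated tumors. No gene was called, among the HH genes or among all 16291 (0%) by edgeR, limma voom or DESeq2, and 618 genes (3.79%) but no HH gene had an unadjusted p under 0.05 in edgeR. The log2 fold changes ran from -0.42 ± 0.25 for GLI1 (interval -0.96 to 0.11) to 0.14 ± 0.22 for SHH (interval -0.33 to 0.61). SUFU had -0.29 ± 0.15 (interval -0.61 to 0.027), SMO -0.24 ± 0.20 (interval -0.67 to 0.19) and GLI2 -0.20 ± 0.19 (interval -0.61 to 0.21). PTCH1, HHIP and KIF7 lay between -0.093 and 0.022. With GC offsets GLI1 had -0.16 ± 0.24, SUFU -0.14 ± 0.13, SMO 0.087 ± 0.096, KIF7 0.31 ± 0.18, GLI2 0.13 ± 0.15 and SHH 0.34 ± 0.21, and none was called.

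The Oxy186-treated tumors were more spread than the control tumors in SMO (SD 0.57 against 0.18 log2 CPM), KIF7 (0.64 against 0.17) and GLI2 (0.47 against 0.25), a description without a test. The Oxy210 group was also wider than the control group, with SDs of 0.44 in SMO, 0.35 in KIF7 and 0.27 in GLI2. In SUFU the SD was 0.39 in the Oxy210 group, 0.32 in the Oxy186 group and 0.14 in the control group. SMO had 4.80, 4.96, 4.05 and 4.21 log2 CPM in r1 to r4, and 5.28, 5.60 and 5.22 in r5 to r7. KIF7 had 2.51, 3.14, 2.82 and 3.15 log2 CPM in r1 to r4, and 3.26, 4.31 and 4.02 in r5 to r7. GLI2 had 4.08, 4.30, 3.57 and 4.18 log2 CPM in r1 to r4, and 4.51, 4.78 and 4.99 in r5 to r7. In these 3 genes r5 to r7 were all above r1 to r4, while in SHH, PTCH1, HHIP and SUFU the values overlapped. The share of all genes separated in this way was not counted, and r1 to r4 were chosen by the study on the same libraries. GLI1 was mixed, with 1.95, 2.05, 2.72 and 1.94 log2 CPM in r1 to r4 and 2.61, 2.95 and 3.18 in r5 to r7.

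With r1 to r4 alone, 4 of the 8 HH genes were lower than in the control group, beside 3323 of 16852 genes called in all (19.7%). The log2 fold changes were -0.64 ± 0.18 for SMO, -0.43 ± 0.14 for SUFU, -0.56 ± 0.17 for KIF7 and -0.54 ± 0.17 for GLI2, with adjusted p-values from 0.0206 to 0.0439 (edgeR). GLI1 had -0.77 ± 0.27 (adjusted p = 0.0588, edgeR), and SHH, PTCH1 and HHIP lay between -0.16 and 0.096. These 4 tumors were picked by the study on the same expression data, so the p-values of this subset are not independent evidence. All 4 of these libraries had negative GC slopes. With r1 to r4 and GC offsets, 683 genes were called (4.05%) and no HH gene was. SMO then had 0.14 ± 0.11, SUFU -0.076 ± 0.15, KIF7 0.38 ± 0.21, GLI1 -0.14 ± 0.29 and GLI2 0.22 ± 0.17. With r5 to r7 alone no HH gene was called, and SMO had 0.18 ± 0.14, KIF7 0.44 ± 0.21, GLI1 -0.036 ± 0.28 and GLI2 0.17 ± 0.17.

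Oxy186 and Oxy210, 2 related oxysterols at the same dose, were compared directly as the 1 pair of compounds in the series. edgeR called 0 of 16361 genes (0%), limma voom 0 and DESeq2 3, and 664 genes (4.06%) had an unadjusted p under 0.05 in edgeR, none of them an HH gene. The differences, Oxy186 against Oxy210, ran from -0.31 ± 0.28 for GLI1 (interval -0.89 to 0.27) to 0.23 ± 0.30 for HHIP (interval -0.40 to 0.86). SMO had -0.29 ± 0.23 (interval -0.79 to 0.20) and GLI2 -0.049 ± 0.19 (interval -0.45 to 0.35). These intervals leave room for differences in either direction, so the compounds are not shown to act alike. Both were set against the same control tumors, where GLI1 had -0.42 after Oxy186 and -0.087 after Oxy210, GLI2 -0.20 and -0.13, SMO -0.24 and 0.079, and SHH 0.14 and 0.32.

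The relation of the HH genes to each other was examined across all 21 tumors with Pearson's r of log2 CPM, tested by 100000 permutations (two-sided) and adjusted over all 36 pairs. 9 pairs passed, 8 of them positive, and all 8 joined the transducers and GLI factors SMO, SUFU, KIF7, GLI1 and GLI2. Many other genes had r as high with the same genes. Of all genes, 4.35% had an r with GLI2 at least that of SMO. This share was the lowest of the 8 pairs, and the highest was 16.35%, for an r with KIF7 at least that of SUFU. Of the 10 pairs that these 5 genes form, r ran from 0.38 to 0.74. SMO and GLI2 were the closest (r = 0.74, rho = 0.66, permutation p = 0.00012, adjusted p = 0.00432). SUFU and GLI2 (r = 0.68), SMO and SUFU (r = 0.68), SMO and KIF7 (r = 0.68) and KIF7 and GLI2 (r = 0.66) followed, with permutation p-values from 0.0006 to 0.00126 and adjusted p-values from 0.00783 to 0.00907. SMO and GLI1 (r = 0.56), SUFU and KIF7 (r = 0.56) and KIF7 and GLI1 (r = 0.54) passed with adjusted permutation p-values of 0.035, 0.035 and 0.0481. GLI1 and GLI2 had r = 0.52 and rho = 0.57, with adjusted permutation p-values of 0.0559 for r and 0.0386 for rho. Without the 2 tumors farthest from the median of the first gene, r was 0.59 for SMO and GLI2, 0.48 for SUFU and GLI2, 0.61 for SMO and SUFU, 0.67 for SMO and KIF7 and 0.63 for KIF7 and GLI2. 3 pairs no longer passed in this setting, namely SUFU and GLI2 (adjusted permutation p = 0.121), SUFU and KIF7 (0.106) and KIF7 and GLI1 (0.106), and SHH and SUFU passed instead (r = 0.66, adjusted permutation p = 0.0266).

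The readout genes PTCH1 and HHIP stood outside this group, while GLI1, also a readout gene, had passing pairs with SMO and KIF7. PTCH1 and GLI1, both used as readouts of GLI activity, had r = -0.37 (permutation p = 0.0991, adjusted p = 0.264), and with GLI2 PTCH1 had r = -0.057. HHIP had r = 0.18 with GLI1, -0.094 with GLI2 and 0.33 with PTCH1. None of these passed, so no 2 of the 3 readout genes were shown to move together in these tumors.

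SHH and HHIP, the ligand and the protein that traps it, moved in opposite directions. They had r = -0.63 and rho = -0.66 over 21 tumors (permutation p = 0.00238 and 0.00152, adjusted p = 0.0143 and 0.0182), with r = -0.73 without the 2 tumors farthest from the median of SHH and -0.56 without the 2 farthest from the median of HHIP. Within the Oxy210 group r was -0.97 (exact permutation p = 0.000794 over 5040 orders, adjusted p = 0.0286, n = 7), while rho was -0.96 and did not pass (exact permutation p = 0.00278, adjusted p = 0.1). There SHH in r1 to r7 was 2.73, 2.24, 2.55, 1.67, 1.60, 2.41 and 1.84 log2 CPM, while HHIP was 1.31, 2.24, 1.88, 2.90, 3.17, 1.73 and 2.50. Ordered by SHH, the Oxy210-treated tumors were in the reverse order of HHIP apart from r3 and r6. In these 7 tumors both genes also leaned with the GC slope of the library, in opposite directions. SHH had r = 0.79 with the slope (exact permutation p = 0.044, adjusted p = 0.0793) and HHIP r = -0.70 (exact permutation p = 0.0871, adjusted p = 0.112). The part of the slope in the r of -0.97 was not tested. Within the control group r was -0.53 and within the Oxy186 group -0.21, neither past the threshold (exact permutation p = 0.216 and 0.641, n = 7), and the difference of r between groups was not tested. Without Oxy186-treated r1 to r4 it was -0.68 (permutation p = 0.00284, adjusted p = 0.102, n = 17). Among all genes, 0.74% had an r with HHIP at least as negative as that of SHH.

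The levels of the transducers and GLI factors also followed the GC slope of the library. SMO had r = 0.89 with the slope (permutation p = 1e-05, the smallest these permutations can give, adjusted p = 9e-05 over 9 genes). GLI2 had r = 0.77, KIF7 0.76, SUFU 0.70 and GLI1 0.56, all past the threshold (adjusted permutation p from 0.000135 to 0.0149). SHH had r = 0.36, PTCH1 -0.12 and HHIP -0.11, none of them past the threshold. When values were centred within groups SHH passed as well (r = 0.50, adjusted permutation p = 0.0165), which made 6 genes. Without the 2 tumors of most extreme slope, r was 0.83 for SMO, 0.69 for GLI2, 0.74 for KIF7, 0.63 for SUFU and 0.57 for GLI1. The exons of KIF7, SMO, GLI2 and GLI1 hold 62.4%, 60.9%, 60.6% and 58.7% GC, those of SUFU 55.6% and SHH 55.3%, and those of PTCH1 50.1% and HHIP 37.1%. Many other genes followed the slope as well, since 5.0% of all genes had an r with it at least that of SMO and 13.6% at least that of GLI2.

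Once the GC trend of each library was removed, none of the 36 pairs passed. The removal was not exact for each gene. GLI2 and KIF7 then fell with the slope (r = -0.55 and -0.50, permutation p = 0.0101 and 0.0207, adjusted p = 0.091 and 0.0931). SMO and GLI2 then had r = 0.21, SMO and KIF7 0.093, SMO and SUFU 0.19 and SUFU and GLI2 0.29, and KIF7 and GLI2 kept the highest value among these 5 genes, 0.41 (permutation p = 0.0666). SHH and HHIP stayed at r = -0.62 (permutation p = 0.00289, adjusted p = 0.104). Centring each gene within its group left 4 pairs past the threshold by r and 0 by rho, and leaving out Oxy186-treated r1 to r4 left 0, with r from 0.33 to 0.61 among the 10 transducer and GLI pairs. In the Oxy210 group alone these 10 pairs had r from 0.33 to 0.80, in the Oxy186 group from 0.26 to 0.85 and in the control group from -0.44 to 0.73, with none past the threshold in any of the 3 groups.

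**Figure D3:**
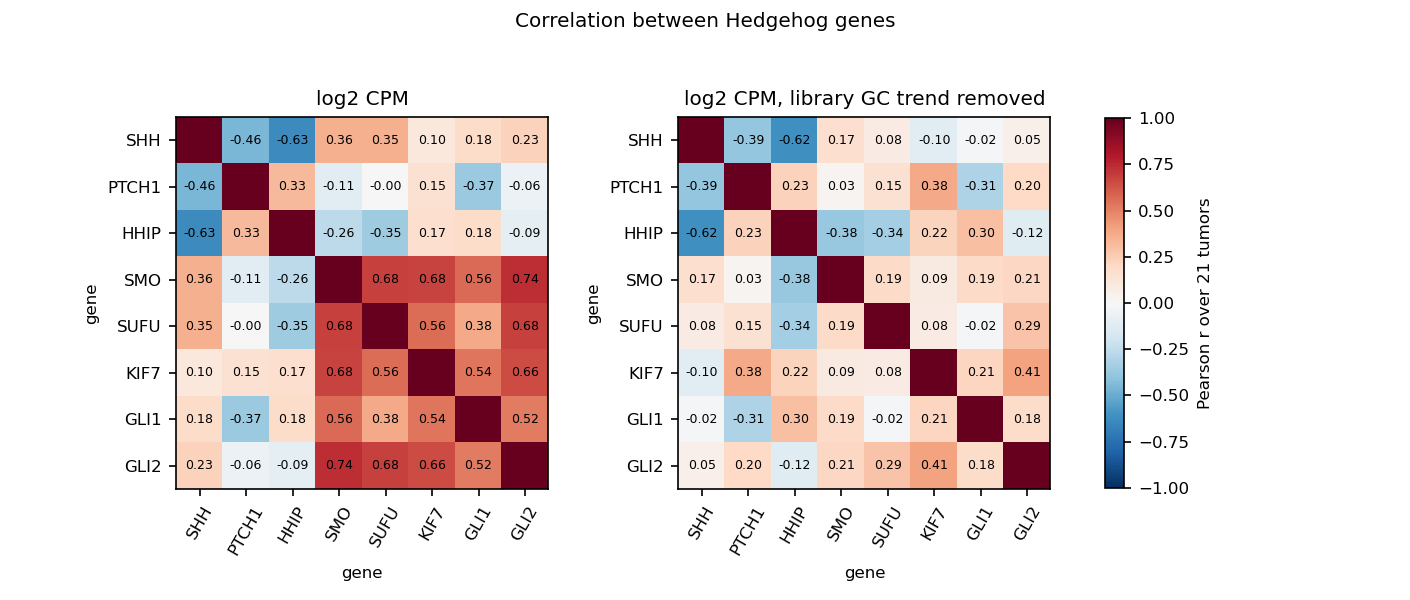
Pearson's r between the 8 tested HH genes over 21 tumors, on log2 CPM (left) and after removal of each library's GC trend (right), with the colour scale from -1 to 1. The block of SMO, SUFU, KIF7, GLI1 and GLI2 has r from 0.38 to 0.74 on the left and from -0.022 to 0.41 on the right, while SHH and HHIP have -0.63 and -0.62.

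**Figure D4:**
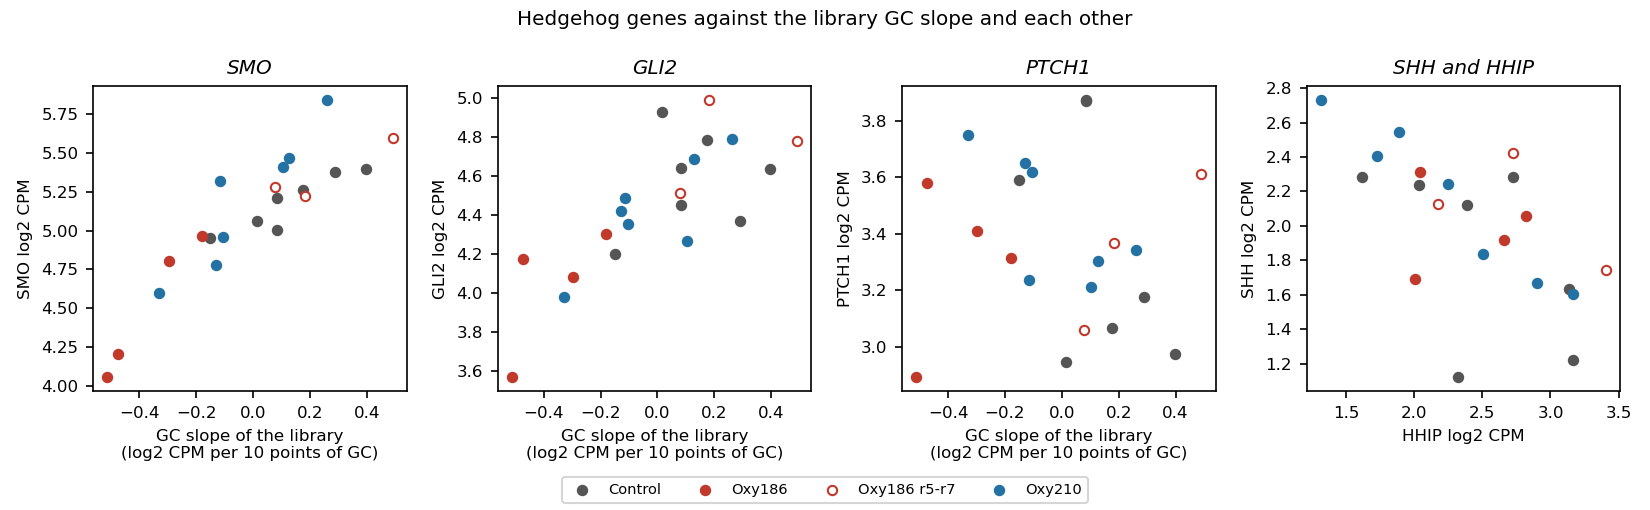
Log2 CPM of SMO, GLI2 and PTCH1 against the GC slope of the library, and of SHH against HHIP, in each tumor of the control, Oxy186 (r5 to r7 open) and Oxy210 groups. SMO and GLI2 rise with the slope (r = 0.89 and 0.77), PTCH1 does not (r = -0.12), and the Oxy210-treated tumors fall along a line of decreasing SHH with increasing HHIP (r = -0.97).

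The genes most like each HH gene were ranked by Pearson's r over the 21 tumors among 13600 genes outside the core, as a description without a test. SMO was closest to POMT2, a protein O-mannosyltransferase (r = 0.96), SUFU to EXTL3, a glycosyltransferase of heparan sulphate synthesis (r = 0.91), and KIF7 to EIF4H, a translation initiation factor (r = 0.90). Among the genes closest to GLI2 were MGAT5B and MVB12B (r = 0.90 and 0.88), and GLI1 was closest to GET4, LBH and KCNH3 (r = 0.80, 0.78 and 0.78). After removal of the GC trend r was 0.35 for POMT2, 0.58 for EXTL3 and -0.12 for EIF4H. It was then 0.52 for MGAT5B and 0.0093 for MVB12B, and 0.66, 0.59 and 0.64 for the 3 genes closest to GLI1. HHIP was closest to CAV1, the main protein of caveolae (r = 0.83, and 0.72 without the GC trend). PTCH1 was closest to SMARCA2, an ATPase of the SWI/SNF chromatin remodelling complex (0.77 and 0.69), and SHH to the transcript AC015712.2 (0.80 and 0.69). GLI3 was not ranked because its counts were near 0.

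Other genes of the pathway were taken as 4 lists. Of the other ligands, ligand release factors and co-receptors, 6 of 10 were tested in Oxy210 against control and none was called, with a median log2 fold change of 0.067 against 0.0086 over all genes. DHH, the ligand of the male gonad and peripheral nerve, and the co-receptor GAS1 had a median count of 0. IHH, the ligand best known from growing bone, had the smallest p of this list, with -0.79 ± 0.41 after Oxy210 (adjusted p = 0.385, edgeR) and from 3 to 45 counts in a tumor. The regulators between SMO and GLI included 23 of 23 tested genes, of which 8 were below 0 and 5 had an unadjusted p under 0.05, where 48.7% of all genes were below 0 and 13.8% had such a p. EFCAB7, which anchors the EVC complex at the base of the cilium, had 0.49 ± 0.16 after Oxy210 (adjusted p = 0.271, edgeR) and 0.30 ± 0.18 after Oxy186.

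Of the genes of ciliary transport, 17 of 17 were tested and 3 were below 0 after Oxy210, with a median of 0.15, where 48.7% of all genes were below 0. Only TTC21B, a subunit of retrograde intraflagellar transport, had an unadjusted p under 0.05 in that list (0.28 ± 0.13, adjusted p = 0.345, edgeR). Of the GLI target genes outside the core, 9 of 12 were tested, 6 of them below 0 as were 48.7% of all genes, with a median of -0.13. FOXL1 and IGFBP6, 2 of these 9, had an unadjusted p under 0.05 (edgeR), where 13.8% of all genes had one. With GC offsets the lowest log2 fold change of this list after Oxy210 was -0.51. IGFBP6, a binding protein of insulin-like growth factor, had -0.88 ± 0.27 after Oxy210 (adjusted p = 0.267, edgeR) and -0.95 ± 0.38 after Oxy186 (adjusted p = 0.862, edgeR), both against the same control tumors. After Oxy186 the 4 lists had medians of -0.024, 0.0058, 0.044 and -0.19. With GC offsets the 4 medians were -0.015, 0.022, 0.081 and -0.024 after Oxy210, with no gene of ciliary transport at an unadjusted p under 0.05, and -0.088, 0.013, 0.0094 and -0.056 after Oxy186. None of their genes was called in any of the 3 comparisons with all tumors.

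Markers of other cells were given for the same tumors, and as mouse reads were removed they are counts of reads assigned to human genes. In Oxy210 against control, DCN and LUM among 4 tested fibroblast markers, LYZ among 3 immune markers and KRT19 among 10 epithelial markers had an unadjusted p under 0.05, as did 13.8% of all genes, and none was called. Scaled to the unadjusted total counts, the fibroblast markers summed to between 117 and 238 CPM in control, 105 and 235 CPM in Oxy186-treated and 80.7 and 159 CPM in Oxy210-treated tumors. The endothelial markers summed to at most 6.90 CPM and the immune markers to at most 31.8 CPM in any tumor. Their part in the HH gene values was not tested.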

How the data were processed

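RNA was sequenced from 21 A549-Luc2 xenograft tumors, 7 per group, each a separate tumor. The authors trimmed reads with Trimmomatic 0.39, aligned them with STAR 2.7.6a to a combined human (GRCh38.p13) and mouse (GRCm39) genome, kept alignments to the human genome and deposited raw counts of uniquely mapped reads per human gene, made with featureCounts (Subread 2.0.1). A further deposited table holds log2 CPM, limited to control tumors and Oxy186-treated r1 to r4. Log2 CPM recomputed here with TMM normalization and a prior count of 2 differed from the deposited log2 values by at most 4.97e-14 over 16852 genes. Total counts ranged from 13787493 to 17865119 per tumor.

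Counts were tested in R 4.3.3 with the quasi-likelihood test of edgeR 4.0.16 (filterByExpr, TMM, Benjamini-Hochberg over all tested genes, called at an adjusted p at or under 0.05), with the 2 groups compared in each fit. This took the place of the limma voom test of the study, which was an alternative (limma 3.58.1), as was DESeq2 1.42.0. Intervals are 95% intervals from the standard error. RPKM used union exon lengths of GENCODE 44 on GRCh38, as did exon GC content, which was found for 99.8% of genes. GC trends were splines with 4 degrees of freedom per library, fitted to log2 CPM relative to each gene's mean where that mean reached 1. Correlations used 100000 permutations, or all 5040 orders within a group of 7. The 36 pairs adjusted together include 8 with GLI3. Genes named were the 9 core genes, the genes most correlated with each (3 for each GLI gene, otherwise 1) and, in each pathway list, called genes or else the gene with the smallest p in Oxy210 against control. Other names were added after their values were seen. The members and lists were chosen with earlier results of these data known. An HH gene named by the study and a gene given by the naming rule are not reported here.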

Additional observations from a re-analysis of the deposited data

Results flagged for a closer look

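Among 24 sets of 7 tumors, made by the 8 tested HH genes in the 3 groups, 1 held a tumor that stood apart from the others of its group, and chance alone gives about 1.2. KIF7 in control r4 was at 3.12 log2 CPM, below the other 6 control tumors, and its gap to the nearest of them was 0.62 of the range of the group. Without that tumor the log2 fold change of KIF7 was -0.060 after Oxy210 and -0.12 after Oxy186, against -0.00066 and -0.059 with it, and KIF7 was not called in either fit. With r1 to r4 alone of the Oxy186 group KIF7 was called.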

How the results depend on the processing

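Of the HH genes, none was called in any alternative of Oxy210 against control or of Oxy186 against Oxy210, and in Oxy186 against control only with r1 to r4 alone, where 4 were. Over all genes and against a count of 0, Oxy210 against control gave 92 calls with DESeq2 and 11 with no filter. Oxy186 against control gave 3323 with r1 to r4, 683 with r1 to r4 and GC offsets, and 1 with r5 to r7 and GC offsets. Oxy186 against Oxy210 gave 1881 with r1 to r4, 29 with r5 to r7, 3 with DESeq2, and 1 each with no filter, with all 3 groups in one fit and with GC offsets. Leaving out each tumor in turn gave 0 calls (lowest 0, highest 0) in all 3 comparisons. The GC fits of r1 to r4 and of r5 to r7, and the GC removal with centring within groups, were chosen after seeing the data.

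Signs turned for values that were not called. In Oxy210 against control, with GC offsets, KIF7 had 0.21, GLI1 0.052 and GLI2 0.062, and KIF7 had 0.049 with library size alone. In Oxy186 against control, GC offsets gave -0.031 for HHIP, 0.087 for SMO, 0.31 for KIF7 and 0.13 for GLI2. With r1 to r4 HHIP had -0.16, and with r1 to r4 and GC offsets HHIP had -0.45, SMO 0.14, KIF7 0.38 and GLI2 0.22. With r5 to r7 SMO had 0.18, KIF7 0.44 and GLI2 0.17, and with GC offsets 0.010, 0.20 and 0.0090. In Oxy186 against Oxy210, r5 to r7 gave 0.11 for SMO, 0.027 for SUFU, 0.45 for KIF7, 0.064 for GLI1 and 0.31 for GLI2, and GC offsets gave 0.098 for KIF7 and 0.069 for GLI2. Over left-out tumors, Oxy210 against control ran from -0.039 to 0.15 for SMO, from -0.086 to 0.063 for KIF7 and from -0.25 to 0.071 for GLI1. Oxy186 against control ran from -0.16 to 0.031 for PTCH1, from -0.17 to 0.18 for HHIP and from -0.25 to 0.068 for KIF7. Oxy186 against Oxy210 ran from -0.25 to 0.059 for KIF7 and from -0.16 to 0.066 for GLI2.

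The replicate numbers are shared between groups, but samples with the same number did not deviate together (r above 0.1 in 5 of 21 pairs, from -0.54 to 0.41, and 1 of 21 tumors closest to its own number). With the replicate block, 2 genes were called in Oxy210 against control, neither of them an HH gene, and with GC offsets added 1 in Oxy186 against Oxy210. The replicate block with GC offsets gave 0.22 for KIF7, 0.071 for GLI1 and 0.083 for GLI2 after Oxy210. After Oxy186 it gave -0.045 for HHIP, 0.082 for SMO, 0.29 for KIF7 and 0.14 for GLI2, and between the compounds 0.081 for KIF7 and 0.057 for GLI2.

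Of 9 correlated pairs, 4 passed when centred within groups, 1 in the Oxy210 group alone, and 0 in the control group alone, in the Oxy186 group alone, without Oxy186-treated r1 to r4, with the GC trend removed, and with removal and centring together. The groups alone hold 7 tumors each. SMO and SUFU had r = -0.44 in the control group alone, SUFU and KIF7 -0.27 and KIF7 and GLI2 -0.38, and SMO and KIF7 -0.045 with the GC trend removed and centring. Of 5 genes correlated with the GC slope, 2 passed in the Oxy210 group alone, 1 in the control group and 3 in the Oxy186 group. After removal of the trend, which takes out variation along the slope by design, 0 passed. GLI2 and KIF7 then had r = -0.55 and -0.50 with the slope, reversed from 0.77 and 0.76 (adjusted permutation p = 0.091 and 0.0931). The causes were not tested, and neither was the effect of the smaller number of tumors within a group. Depth limits GLI3, with 11 counts in all.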
